A study of Oncorhynchus mykiss with 6 samples.

Results

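Small RNA sequences named miR-21 were examined in the liver of rainbow trout. They were taken from the deposited table of miRNA sequences by name, as every entry whose name holds miR- or mir- followed by the whole number 21. The rule found 15 of 1389 sequences, and it used no measured value. By their bases and names, 9 sequences came from the 5p arm of the miR-21 hairpin and 4 from its 3p arm. The remaining 2 have names ending in p3, were taken as pieces of the precursor and were counted in neither arm.

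Juvenile rainbow trout, given as wild type and of the strain "Walbaum", had interacted in pairs for 4 d. Liver RNA was sequenced from 3 socially subordinate (SS) and 3 socially dominant (SD) fish that had been drawn at random within each group, with 1 library per fish. Both groups were housed as pairs, and no library came from isolated fish. SD fish took nearly all of the food and SS fish had the higher plasma cortisol, so that social rank, feeding and cortisol cannot be told apart in this comparison. Fish are called by the number in their label: 4A, 6A and 1B in the SS group, and 4B, 6B and 21A in the SD group.

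A miRNA hairpin is cut into a pair of strands, and the strand kept by an Argonaute protein guides it to messenger RNAs through the seed, a run of bases near its 5′ end. In miR-21 of vertebrates the 5p strand is usually the kept one, and the 3p strand is found at a lower level. Sequences of 1 arm that differ by bases at their ends are called isomiRs: a different 5′ end moves the seed, whereas a different 3′ end leaves it in place. In mammals, miR-21 is known for its rise in liver injury, inflammation and fibrosis and in many tumours, and it is found in hepatocytes, leukocytes and stellate cells.

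The sequences on which the results turn are printed here so that their arms and ends can be compared. All are as deposited, 5′ to 3′ with T for U, and capitals mark the seed, bases 2 to 8. The names begin with the fish species whose miRBase entry matched best. In them, R and L with a sign count bases gained or lost at the right (3′) or left (5′) end, and "ss" marks a substitution.
fru-miR-21: tAGCTTATcagactggtgttggc
ssa-miR-21a-5p_R-3: tAGCTTATcagactggtgttg
dre-miR-21_1ss23CA: tAGCTTATcagactggtgttgga
hhi-miR-21_L+2: cCTAGCTTatcagactggtgttggc
pol-miR-21-3p_R-1_1ss14AT: cGACAACAgtctgtaggctgt
ssa-miR-21a-3p: cGACAACGgtctgtaagctgt

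The first 3 sequences are 5p strands with 1 seed. fru-miR-21, the most abundant, is 23 nt long, and ssa-miR-21a-5p_R-3 is the same strand ending 2 bases earlier, at 21 nt. dre-miR-21_1ss23CA is also 23 nt long and differs from fru-miR-21 by C23A, counted from its 5′ end, which is its last base. hhi-miR-21_L+2 has 2 more bases at its 5′ end, so that its seed is CTAGCTT. The fifth and sixth sequences are 3p strands of 21 nt, and they differ by A8G, inside the seed, and by G16A, both counted from the 5′ end and given from pol-miR-21-3p_R-1_1ss14AT to ssa-miR-21a-3p. The seed AGCTTAT was held by 6 of the 1389 sequences, all of them miR-21, and the seed GACAACA by 1, the leading 3p strand.

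The authors' mapping placed 6 of the 15 sequences, with 137296 reads, in the class of miRBase entries found in the trout genome. Among them were fru-miR-21, the 21 nt 5p form and both 3p strands shown. dre-miR-21_1ss23CA was 1 of 2 sequences in the class of sequences mapping to trout loci predicted to fold into a hairpin. The other 7 sequences, with 131 reads in all and with hhi-miR-21_L+2 among them, matched fish miRNAs but were not mapped to the trout genome. No genome was used here, so that the loci of the miR-21 genes are not given.

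Over the 6 libraries, miR-21 sequences held 138751 reads, 135310 (97.5%) on the 5p arm and 3435 (2.48%) on the 3p arm. fru-miR-21 alone held 86.8% of them. By mean level it ranked 15 among the 1389 sequences, whereas the 21 nt 5p form ranked 52 and the leading 3p strand 85. Reads that fit several near-identical sequences had been shared out, so that counts of single forms are estimates with fractions. A sum over an arm does not depend on how reads were split among the forms of that arm. The sums still held fractions (40262.2 reads for 5p and 1518.5 for 3p in SS 4A), so a split with entries outside the arm may remain in them. The filter on low counts left 338 sequences of the table. Of the 15 miR-21 sequences, 5 passed it, and these held 99.9% of the miR-21 reads.

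The libraries held 2420009 to 6061431 mappable reads, of which 33.9 to 55.8% were in the table of miRNA sequences. The lowest of these shares was in SS 6A. miR-122, the defining miRNA of hepatocytes, took 35.7 to 40.4% of the counts in every library. Levels are given as normalized reads, the authors' counts divided by a size factor for each library. In these pieces of liver, fewer cells of a type and less RNA per cell cannot be told apart.

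Of the 5 tested forms of hepatic miR-21, 3 had a higher level in each SS fish than in any SD fish. Among all 338 tested sequences, 36 (10.7%) were apart in this way. The 3 forms were counted in the same fish and are not independent observations, and the size of the difference varied with the form. The leading 3p strand was 7.70-fold higher in SS fish and passed the test over all sequences. The leading 5p form, 2.95-fold higher, and the 21 nt 5p form, 1.52-fold higher, were likewise apart but did not pass the adjusted threshold. The A-ended 5p form and the form with 2 added 5′ bases overlapped between the groups.

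The leading 5p form fru-miR-21, the strand that carries the usual miR-21 seed, had 30264, 16815 and 36788 normalized reads in SS fish 4A, 6A and 1B. It had 7957, 10239 and 10254 in SD fish 4B, 6B and 21A. The groups did not overlap, although SS 6A lay nearest to the SD values. The SS mean was 27956 ± 10185 and the SD mean 9483 ± 1322 (± standard deviation over fish, n = 3 each). The log2 fold change was 1.55 (SE 0.31), with an adjusted p = 0.138 by the quasi-likelihood test of edgeR, adjusted over 338 sequences by the Benjamini-Hochberg method. In the same comparison DESeq2 gave fru-miR-21 an adjusted p = 0.000505, and edgeR without SS 6A gave 0.0129; adjusted p ranged from 3.04e-05 to 0.612 over its 19 alternatives.

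The 21 nt form ssa-miR-21a-5p_R-3, with the same seed but a shorter 3′ end, had 2210, 2266 and 3131 normalized reads in SS fish 4A, 6A and 1B. In SD fish 4B, 6B and 21A it had 1714, 1477 and 1823. The groups did not overlap, and the SS values began a little above the highest SD value. Means were 2536 ± 517 and 1671 ± 177 (± standard deviation, n = 3 each). The log2 fold change was 0.58 (SE 0.23), with an adjusted p = 0.421 by edgeR.

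The leading 3p strand pol-miR-21-3p_R-1_1ss14AT, from the opposite arm of the hairpin, had 1219, 779 and 879 normalized reads in SS fish 4A, 6A and 1B. Its values in SD fish 4B, 6B and 21A were 85.1, 185 and 104. The lowest SS fish lay well above the highest SD fish, SD 6B. Means were 959 ± 231 and 124 ± 52.9 (± standard deviation, n = 3 each). The log2 fold change was 2.92 (SE 0.38), with an adjusted p = 0.0213 by edgeR. The call was lost without SD 4B (adjusted p = 0.0727) or SD 21A (0.155) and with the fish number as a block (0.444). With that block the difference rests on fish 4A, 6A, 4B and 6B alone, as SS 1B and SD 21A share their number with no other fish. The log2 fold change stayed between 2.75 and 3.34 in all 19 alternatives, and the adjusted p ranged from 2.16e-13 to 0.444.

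The A-ended 5p form dre-miR-21_1ss23CA, of the same length and seed as fru-miR-21, had 163, 170 and 277 normalized reads among SS fish 4A, 6A and 1B. SD fish 4B, 6B and 21A had 183, 173 and 236. The groups overlapped, with the highest value in SS 1B and the lowest in SS 4A. Means were 204 ± 64.0 and 197 ± 33.98 (± standard deviation, n = 3 each), and the log2 fold change was 0.03 (SE 0.30). Its edgeR adjusted p was 0.962, and its sign changed under 5 of 19 alternatives.

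The form with 2 added 5′ bases, hhi-miR-21_L+2, whose seed is moved, had 16.8, 10.1 and 9.51 normalized reads among SS fish 4A, 6A and 1B, against 11.4, 22.2 and 8.93 for SD 4B, 6B and 21A. The groups overlapped. Its log2 fold change was -0.19 (SE 0.49) with an edgeR adjusted p of 0.892, and counts per library went down to 7.

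**Figure D1:**
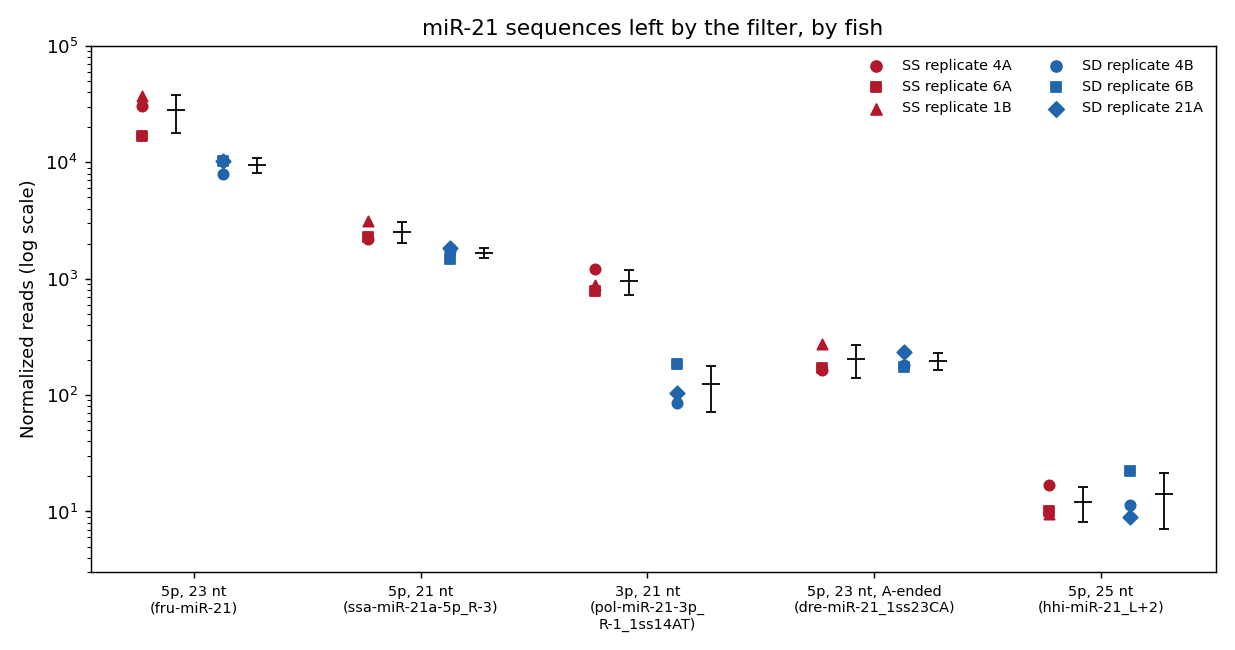
Normalized reads (log scale) of the 5 miR-21 sequences left by the filter, in 3 SS and 3 SD fish; coloured symbols are single fish, and the black marks beside them are group means with SD. SS and SD fish are apart for the leading 5p form, the 21 nt 5p form and the leading 3p strand, and they overlap for the A-ended form and the 25 nt form.

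Among all 338 tested sequences, 2 passed the adjusted threshold with a higher level in SS fish, a background of 0.592%, and the leading miR-21 3p strand was 1 of them. An unadjusted p under 0.05 with a higher level in SS was reached by 24 sequences (7.1%), and by 3 of the 5 miR-21 sequences. Complete separation, with all SS fish higher, was seen in 36 sequences (10.7%), and in the same 3 of 5 miR-21 sequences. The 3 carry the name of 1 miRNA and were counted in the same fish, with reads shared between near-identical forms, so they are not independent observations; whether they come from 1 or several miR-21 genes is not known here. Among the 338 log2 fold changes from SS over SD, whose median was -0.02, the leading 3p strand ranked 3 and fru-miR-21 ranked 11.

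The other 10 miR-21 sequences had counts of 0 to 19 per library and 119.8 reads in all, and were not tested. The second 3p strand, ssa-miR-21a-3p, with its own seed, was the best filled: its counts were 12.5, 9 and 19 for SS 4A, 6A and 1B against 3, 6 and 5 for SD 4B, 6B and 21A, with no overlap. Normalized, the SS mean was 13.7 ± 4.02 and the SD mean 4.66 ± 2.37 (± standard deviation, n = 3 each). A related 3p strand with 1 more 3′ base, ssa-miR-21a-2-3p_1ss8AG, had 3, 1 and 4 reads among the SS fish against 0, 0 and 1 among the SD fish. All but the 4 reads of SS 1B are within the 3 reads that a count of 0 allows in a library, and no fold is given.

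Most of the rare 5p sequences kept the 5′ end of fru-miR-21 and carried a longer 3′ tail. Their ends are shown because they are what separates these sequences from the leading form; capitals mark the same seed.
dre-miR-21_R+3: tAGCTTATcagactggtgttggcatc
pol-miR-21-5p_R+6: tAGCTTATcagactggtgttggtttttt
ola-miR-21_R+6: tAGCTTATcagactggtgttggagctt

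dre-miR-21_R+3 shares all 23 bases of fru-miR-21 and adds atc, pol-miR-21-5p_R+6 leaves it after 22 bases with a run of T, and ola-miR-21_R+6 leaves it after 22 bases with agctt. Their totals over the 6 libraries were 17.8, 14.5 and 10.8 reads, and SS and SD fish overlapped for each of them. The 5p sequences whose 5′ end was shifted, hhi-miR-21_L+2 among them, held 86.8 reads or 0.0642% of the 5p arm. Nearly all miR-21-5p reads thus shared 1 seed.

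Summed over an arm, the 5p strands had 32666, 19267 and 40213 normalized reads in SS fish 4A, 6A and 1B, against 9873, 11916 and 12328 in SD fish 4B, 6B and 21A. The 3p strands had 1232, 795 and 901 in SS and 89.0, 191.9 and 107 in SD fish. Both arms were higher in each SS fish than in any SD fish, and the order of the SS fish differed between the arms: SS 1B was highest for 5p and SS 4A for 3p. The 5p sum averaged 30716 ± 10609 against 11372 ± 1315, 2.70-fold, and the 3p sum 976 ± 228 against 129 ± 55.0, 7.55-fold (± standard deviation, n = 3 each). Both arms together were 2.76-fold higher in SS fish.

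In the edgeR fit with the arm sums in place of the single forms, 2 of 335 entries (0.597%) were called higher in SS fish, and the miR-21 3p sum was 1 of them. Its log2 fold change was 2.90 (SE 0.38, adjusted p = 0.0206). The call was lost without SD 4B (adjusted p = 0.0788), without SD 21A (0.145) and with the fish number as a block (0.417). The 5p sum had a log2 fold change of 1.44 (SE 0.30, adjusted p = 0.165 by edgeR), and without SS 6A its adjusted p was 0.0174. For both arms together the log2 fold change was 1.48 (SE 0.29, adjusted p = 0.184 by edgeR among 334 entries; without SS 6A, 0.011). Over 20 alternatives the adjusted p of the 3p sum ranged from 3.56e-13 to 0.417, that of the 5p sum from 0.000185 to 0.656 and that of both arms from 0.000124 to 0.719. The exact two-sided permutation test over the 6 fish gave p = 0.1 for each sum, the smallest that 3 against 3 fish allow.

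The denominator mattered for SS 6A. As a share of the counts in the table, miR-21 took 1.94, 0.949 and 2.55% in SS fish 4A, 6A and 1B, against 0.663, 0.654 and 0.652% in SD fish, which were nearly alike. As a share of all mappable reads it took 0.895, 0.322 and 1.32% in SS and 0.324, 0.309 and 0.364% in SD fish, so that SS 6A fell within the SD range (exact two-sided permutation p = 0.3). The 3p strands remained apart on this scale, with 325, 128 and 290 reads per 1e6 mappable reads in SS and 28.9, 49.0 and 31.3 in SD fish. With edgeR scaled to mappable reads, an alternative chosen after the data were seen, the 3p sum had an adjusted p = 0.041 and the 5p sum 0.591. That scaling moved the median log2 fold change of all sequences from -0.02 to -0.23, and the log2 fold changes of the 3p and 5p sums were then 2.76 and 1.32.

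**Figure D2:**
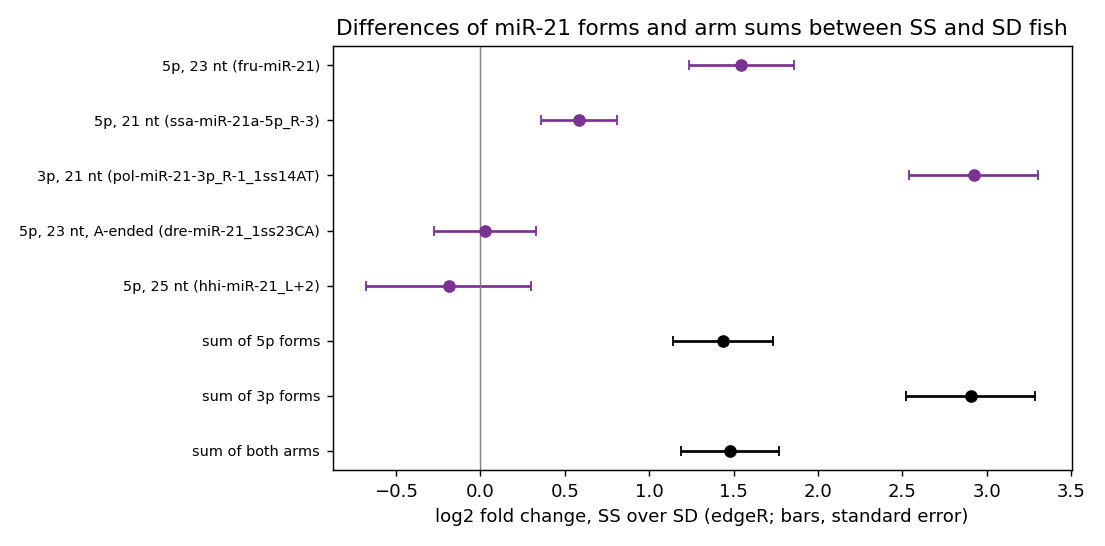
log2 fold change of SS over SD fish, with its standard error (edgeR), for each tested miR-21 sequence (purple) and for the sums over arms (black). Values run from -0.19 for the 25 nt 5p form to 2.92 for the leading 3p strand, and the sum over both arms, at 1.48, lies close to the 5p sum.

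A ratio of arms within a fish needs no scaling between libraries. For each read of the 3p arm there were 26.5, 24.2 and 44.6 reads of the 5p arm in SS fish 4A, 6A and 1B, against 110, 61.9 and 115 in SD fish 4B, 6B and 21A. The 3p arm thus took 3.63, 3.96 and 2.19% of the miR-21 reads in SS fish and 0.893, 1.59 and 0.862% in SD fish. The groups did not overlap. The nearest fish were SS 1B and SD 6B, with exact 95% binomial (Clopper-Pearson) intervals of 2.06 to 2.33% and 1.35 to 1.85%; these intervals cover counting error only. Means were 3.26 ± 0.942% in SS and 1.11 ± 0.409% in SD fish (± standard deviation, n = 3 each; exact two-sided permutation p = 0.1, the smallest possible).

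The same ratio was fitted for all 44 miRNA numbers with both arms above the minimum count, by limma on log2 ratios with 0.5 added to each count. For miR-21, log2(3p/5p) was higher in SS fish by 1.59 (SE 0.37), with a limma adjusted p = 0.00753. It was the largest positive difference among the 44, whose median was -0.01 and of which 22 were positive. Adjusted calls higher in SS came to 1 of 44 (2.27%), which was miR-21, and 1 other, miR-221, was called lower. The miR-221 difference, -1.95 (limma adjusted p = 0.00406), was larger in size than that of miR-21. The sign follows the names of the arms, not their abundance. The less abundant arm is 3p in miR-21 (mean counts of 572.5 for 3p and 22551.6 for 5p). In miR-221 it is 5p (6261 for 3p and 307.5 for 5p). In both called miRNAs the less abundant arm thus had a larger share in SS fish. Among the other miRNA numbers, none of them called, both directions occurred. The less abundant arm had a larger share in SS fish in miR-92 and miR-128, for example, and a smaller one in miR-25 and miR-462. The miR-21 call was lost without SD 4B (adjusted p = 0.123) and without SD 21A (0.0521), and its difference stayed between 1.42 and 1.88 over 11 alternatives, with adjusted p from 0.000243 to 0.123.

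**Figure D3:**
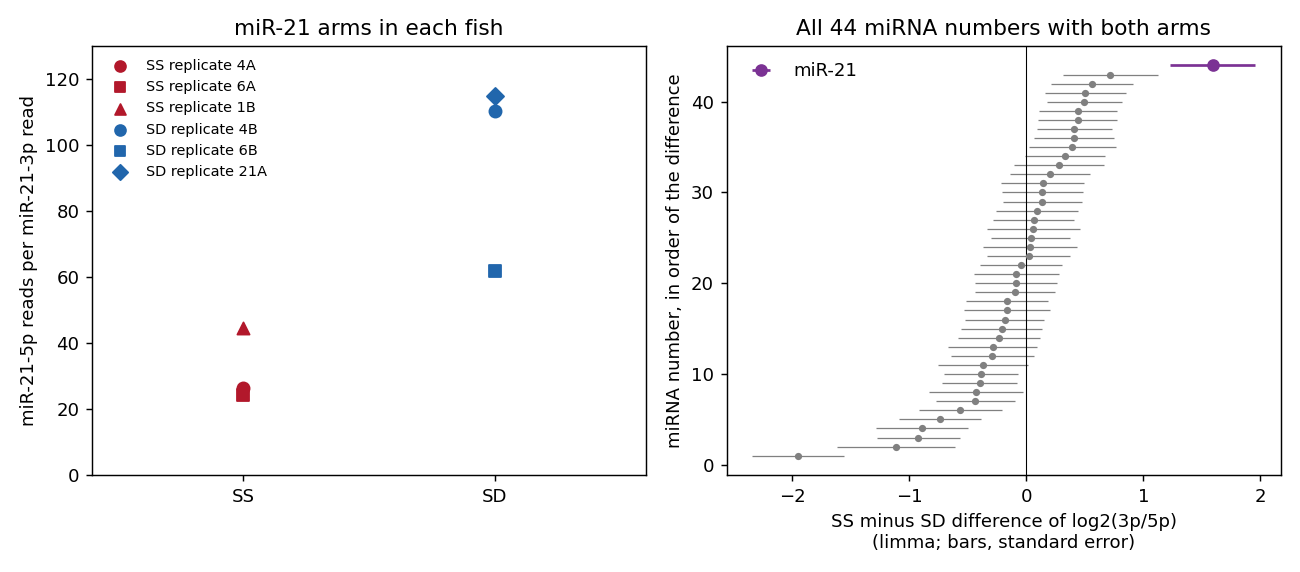
Left, reads of the 5p arm per read of the 3p arm in each fish; the SS fish lie between 24.2 and 44.6 and the SD fish between 61.9 and 115. Right, the difference between SS and SD in log2(3p/5p) for all 44 miRNA numbers with both arms, with the limma standard error. miR-21, in purple, has the largest positive value, 1.59, and the lowest value, -1.95, is that of miR-221, in which 3p is the more abundant arm.

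Within the 5p arm, the 21 nt form took a smaller share in SS than in SD fish. It held 6.77, 11.8 and 7.79% of the 5p reads in SS fish 4A, 6A and 1B, against 17.4, 12.4 and 14.8% in SD fish 4B, 6B and 21A. The groups did not overlap, but SS 6A and SD 6B lay side by side, with exact 95% intervals of 11.2 to 12.3% and 11.7 to 13.1%. The leading 23 nt form held 92.6, 87.3 and 91.5% in SS and 80.6, 85.9 and 83.2% in SD fish.

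Expressed as reads of the 21 nt form per read of the leading form, the values were 0.073, 0.135 and 0.0851 in SS and 0.216, 0.144 and 0.178 in SD fish. The means were 0.0976 ± 0.0327 and 0.179 ± 0.0356 (± standard deviation, n = 3 each). The log2 ratio was lower in SS fish by 0.91, given as -0.91 (SE 0.27), with a limma adjusted p = 0.0723 over the 21 pairs of nested forms in the table. By limma, 0 of these 21 pairs (0%) passed the adjusted threshold with a lower ratio in SS fish and none with a higher one, and 6 had an unadjusted p under 0.05. Each ratio sets the second form over the leading form, whichever is longer. In miR-122 5p, for example, the leading form had 21 nt and the second 25 nt, so a lower ratio there does not mean less of the shorter form. Without SS 6A, the limma adjusted p of the miR-21 pair was 0.043, and it ranged up to 0.429 over the 10 alternatives that gave one.

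The A-ended form also took a smaller share of the 5p arm in SS fish, with 0.499, 0.882 and 0.69% against 1.85, 1.46 and 1.92% in SD fish. The lowest SD share and the highest SS share had exact 95% intervals of 1.23 to 1.71% and 0.731 to 1.06%, which did not meet. For each 100 reads of fru-miR-21 there were 0.539, 1.02 and 0.755 A-ended reads in SS and 2.30, 1.70 and 2.31 in SD fish. The levels of the A-ended form itself overlapped between the groups, as given above. This ratio and 3 others between miR-21 forms were computed after their values had been seen, and each had an exact two-sided permutation p = 0.1, the smallest possible.

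Within the 3p arm, the strands with G8 and A16 in place of A8 and G16 took 1.05, 1.81 and 2.43% of reads in SS fish and 4.29, 3.82 and 3.16% in SD fish. These shares rest on 16, 10 and 23 reads in SS and on 3, 6 and 6 reads in SD fish. All SS shares lay below all SD shares, with means of 1.76 ± 0.687% and 3.76 ± 0.567% (± standard deviation, n = 3 each; exact two-sided permutation p = 0.1, the smallest possible). The exact 95% intervals of single fish were wide at these counts: for the nearest fish they were 1.54 to 3.62% in SS 1B and 1.17 to 6.75% in SD 21A.

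**Figure D4:**
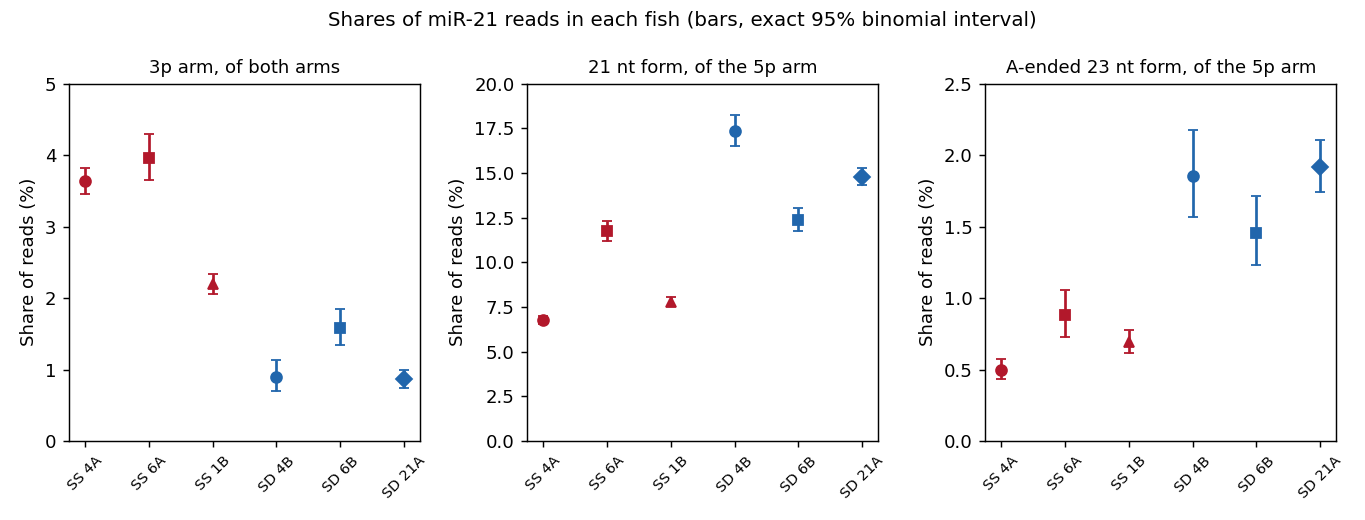
Shares of miR-21 reads in each fish, with exact 95% binomial intervals, for the 3p arm among both arms, the 21 nt form within the 5p arm and the A-ended form within the 5p arm; red symbols are SS and blue symbols SD fish. The 3p share is higher in the 3 SS fish, at 2.19% or more, and both 5p shares are lower in them, with SS 6A and SD 6B close to each other for the 21 nt form.

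Profiles over the 6 fish were compared as log2 CPM centred on each sequence's own mean, among tested sequences not named miR-21. By the root mean square difference over 6 libraries, those most like fru-miR-21 were PC-3p-2861_245 (0.39), ssa-miR-725-3p (0.40), ola-miR-148_R+1 (0.41), PC-3p-20448_18 (0.43) and ssa-miR-203b-3p_L+1 (0.44). The median over these 333 sequences was 0.94. Names beginning with PC are sequences the authors predicted as miRNAs with no match in miRBase. The leading 5p and 3p strands of miR-21 were 0.84 apart, farther than fru-miR-21 was from these 5.

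Among the same 333 sequences, closest to the leading 3p strand were PC-3p-2861_245 (0.76), PC-3p-20448_18 (0.79), ssa-miR-29b-2-5p_L-2 (0.86), pol-miR-221-5p_R+4_1ss5GA (0.89) and ola-miR-148_R+1 (0.92), with a median of 1.596. fru-miR-21, left out of this order, was nearer to the leading 3p strand, at 0.84, than the miR-29, miR-221 and miR-148 sequences were. PC-3p-2861_245 thus led both orders. It had 72.2, 27.4 and 120 normalized reads in SS fish 4A, 6A and 1B, against 10.2, 20.8 and 14.7 in SD fish, low in SS 6A as fru-miR-21 was. PC-3p-20448_18, in both orders, had 24.3, 17.3 and 39.0 normalized reads in SS fish against 7.62, 9.78 and 3.38 in SD fish. It passed the filter on low counts through the SS fish, where it was high, and its SD values are imprecise. All these likenesses are descriptions over 6 libraries that share the same depth factors and the same pair of groups.

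miRNAs known in mammals to change, in either direction, in liver injury, inflammation and fibrosis (miR-29, miR-34, miR-146, miR-155, miR-199, miR-214, miR-221, miR-222 and miR-223) were counted in the same fit. Of their 84 sequences 28 were tested, and 17 of these had a positive log2 fold change, beside 168 of all 338. The median was 0.13, beside -0.02 over all 338. By edgeR 1 of the 28 was called, beside 2 of all 338 (0.592%): ssa-miR-29b-2-5p_L-2, a 5p strand of miR-29. It had 1090, 1722 and 1344 normalized reads in SS and 456, 414 and 445 in SD fish. Its log2 fold change was 1.63 (SE 0.23, edgeR adjusted p = 0.0213). The call was lost in 9 of 19 alternatives, among them leaving out any 1 fish other than SS 4A, the block by fish number and scaling to mappable reads, where its adjusted p reached 0.572; its log2 fold change stayed between 1.38 and 1.81. An unadjusted p under 0.05 was reached by 6 of the 28 with a higher level in SS fish and by 1 with a lower level, beside 24 (7.1%) and 13 of all 338. The 6 were all forms of miR-29, miR-146 or miR-221, and the 1 lower was also a miR-221 sequence, fru-miR-221_R-1. Forms of 1 miRNA counted in the same fish are not independent observations. No tested sequence of the other miRNAs in the list reached that p. This list and the marker lists below were chosen with earlier results of these data known, so their counts are not an independent comparison with the background.

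Markers of other cell types were read beside the miR-21 difference, since miR-21 is also found in leukocytes and stromal cells. None of the listed marker miRNAs was at 0 over the libraries. Of all 338 tested sequences, 168 had a positive log2 fold change. Leukocyte sequences (miR-142, miR-150, miR-155 and miR-223) summed to 1833 to 2173 normalized reads in SS and 1585 to 2517 in SD fish; 4 of 7 tested were positive. Stromal sequences (miR-143, miR-145, miR-199 and miR-214) summed to 75368 to 103299 in SS and 81191 to 98419 in SD fish, with 8 of 14 positive. Erythrocyte sequences (miR-144 and miR-451) summed to 1822 to 7856 in SS and 4950 to 6719 in SD fish, with none of 6 positive. Endothelial miR-126 summed to 15357 to 26223 and 15920 to 19380, with 3 of 3 positive, and epithelial sequences (miR-200, miR-141, miR-429, miR-203 and miR-205) to 1842 to 4270 and 2003 to 4542, with 4 of 8 positive. Every one of these sums overlapped between the groups, and no member of these 5 lists passed the threshold of edgeR or had an unadjusted p under 0.05. The median log2 fold change was 0.22 for leukocyte, 0.03 for stromal, -0.31 for erythrocyte, 0.07 for endothelial and -0.02 for epithelial sequences. Over all 338 it was -0.02. The stromal ssa-miR-214-5p lay apart and was lower in SS fish, with means of 13.2 ± 2.48 against 21.5 ± 2.45 normalized reads in SD fish. Hepatocyte sequences (miR-122, miR-192 and miR-194) summed to 606401 to 849840 in SS and 619088 to 741595 in SD fish, which also overlapped, with 6 of 12 tested positive and none past the adjusted threshold. In that list 3 of the 12 had an unadjusted p under 0.05 by edgeR and lay apart between the groups, all higher in SS fish. They were ssa-mir-122-1-p3_1ss12GA (2.94-fold), named as a precursor piece, and the 3p strands ssa-miR-192a-3p (1.80-fold) and ssa-miR-122-2-3p_1ss10AT (1.503-fold). Among all 338, 24 (7.1%) had such a p with a higher level in SS fish, and 36 (10.7%) lay apart in that direction. The most abundant sequence of each hepatocyte miRNA overlapped between the groups: dre-miR-122_R-1 (1.06-fold in SS over SD fish), ipu-miR-192 (1.11-fold) and ssa-miR-194a-5p (0.95-fold). The part of cell composition in the miR-21 difference was not tested.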

How the data were processed

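Livers of 3 SS and 3 SD fish gave 1 small RNA library each, and groups were taken from the sample titles. The authors cut adapters, kept inserts of 15 to 32 nt, removed other RNA classes and matched reads to fish miRNAs of miRBase 21, tolerating 1 mismatch within the leading 16 nt; the submitters' notes name Bowtie 1.1.1. The deposited values were expected counts per sequence, with shared reads divided, and a normalized signal that the authors made by dividing these estimated counts by a size parameter per library. A count of 0 in the normalized signal is written as 0.001 and was read as 0. The authors also deposited whole counts of reads at each filtering step. Ligation and amplification without molecular identifiers, and sequencing errors at strand ends, can change the measured shares of forms.

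Expected counts were rounded and analysed in R 4.3.3 with edgeR 4.0.16 (filterByExpr, minimum count 10, TMM, quasi-likelihood test, Benjamini-Hochberg, threshold 0.05). The table totals were 1183289 to 3382970 per library. The fit used all sequences. It was repeated with the miR-21 sequences summed by arm. Ratios were fitted with limma 3.58.1 and set beside exact permutation tests. Scripts were tested on simulated data. An unnamed strand took the arm of the named strand with which it shared a run of 12 bases or more. All miR-21 sequences were accounted for, some of the rare ones only within ranges and totals. Other single sequences were described as nearest profiles, as list members with small p or as the most abundant sequence of a hepatocyte miRNA. The members and lists were chosen with earlier results of these data known. Alternatives were DESeq2 1.42.0, other scalings, filters and pseudocounts, limma, each fish left out and the fish number as a block. Fish numbers 4 and 6 occur in both groups, but the labels do not say that a number marks a pair. Each observation tank held 1 pair, so that fish of 1 group came from separate tanks, and p-values measure the spread between these fish.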

Additional observations from a re-analysis of the deposited data

Results flagged for a closer look

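tni-mir-21-p3, taken as a precursor piece and counted in neither arm, had 4 reads in SS 4A, above the 3 reads that a count of 0 allows. It was left out of the arm sums and of the ratios, and the filter on low counts removed it from the main fit. Its reads are part of the miR-21 total and of the miR-21 shares of table and mappable reads. SS 6A and SS 1B had 0.5 and 1 reads, and it was at 0 in the 3 SD fish.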

How the results depend on the processing

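Over all sequences, 2 were called by edgeR. The count was 7 with DESeq2, 18 with no filter on low counts, 1 with scaling to total counts only, 1 with limma on log2(normalized reads + 1), 1 with scaling to mappable reads (chosen after the data were seen) and 0 with the fish number as a block; leaving out 1 fish gave 0 to 3. Of the miR-21 sequences, 1 was called, and 2 with DESeq2, 2 with no filter, 0 with the block and 0 to 2 leaving out 1 fish: 0 without SD 4B or SD 21A and 2 without SS 6A. The block used fish numbers 4 and 6. SS 1B and SD 21A, each alone in its number, add nothing to the difference in that fit, which leaves few residual degrees of freedom. The deviations of same-numbered fish correlated at 0.15 (4A with 4B) and 0.45 (6A with 6B), and 2 pairs do not establish a pairing. For SS and SD fish of unlike number the correlation ran from -0.37 to 0.30. The cause of these differences was not tested.

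The log2 fold change of the 5p sum, 1.44, was called with DESeq2 (1.45, adjusted p = 0.00149) and with no filter (1.47, edgeR adjusted p = 0.000185), and ranged from 1.22 to 1.70 leaving out 1 fish. That of both arms, 1.48, was called with DESeq2 (1.48, adjusted p = 0.00121) and with no filter (1.502, edgeR adjusted p = 0.000124), and ranged from 1.22 to 1.74. That of the 3p sum, 2.90, was not called with the block (2.87, edgeR adjusted p = 0.417) and ranged from 2.73 to 3.32; it was called under 17 of 20 alternatives. The arm ratio ranged from 1.42 to 1.88 leaving out 1 fish and was called under 9 of 11 alternatives, the block among them (1.70, limma adjusted p = 0.00661). The 21 nt to 23 nt ratio ranged from -1.17 to -0.72 and was called under 1 of the 10 alternatives that gave an adjusted p; the block gave -0.83 (limma adjusted p = 0.429). The sign of dre-miR-21_1ss23CA changed with limma voom (-0.019), the block (-0.14) and scaling to mappable reads (-0.12), and it ranged from -0.24 to 0.19 leaving out 1 fish. hhi-miR-21_L+2 ranged from -0.49 to 0.29. Its 7 to 20.7 reads per library limit its precision, as do the 67 to 184 reads of the leading 3p strand in SD fish.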
